A study of Mus musculus with 2 samples.

Results

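The genes described are the subunits of the cohesin ring (Smc1a, Smc3, Rad21, Stag1 and Stag2), the loader Nipbl, the release factor Wapl with its partners Pds5a and Pds5b, and the insulator protein gene Ctcf. They were chosen by name and found through their Ensembl gene identifiers, and all 10 had a locus among the 34624 loci measured. The files group genes that overlap into shared loci, but each of the 10 genes had a locus to itself. The study sequenced total RNA of whole embryos of CBA/Ca×C57Bl/10 crosses, taken untreated at embryonic day 10.5. It held 1 group with 2 replicates, which the labels do not describe as single embryos or pools. Whether the spread between them is technical, biological or both is therefore not known, and no comparison between conditions exists.

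Cohesin is a ring in which SMC1A and SMC3 are joined at one end by their hinges and bridged at the other by the kleisin subunit RAD21. A STAG protein binds the kleisin. The ring holds sister chromatids together from replication to mitosis, and in interphase it extrudes loops of chromatin that stop at sites bound by CTCF. NIPBL loads cohesin and drives loop extrusion, WAPL with a PDS5 protein releases it, and acetylation of SMC3 makes it resistant to release. Altered dosage of cohesin or NIPBL causes developmental disorders of the Cornelia de Lange type, which affect limb, heart and face, organs that are being formed at this stage.

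The promoters of abundant genes and of much scarcer paralogues are shown first, since the data hold both abundant subunits and their scarce germline counterparts. RefSeq windows on build GRCm38.p6, from 250 bases before to 50 bases after the start of transcription, were found for 7 of the 10 genes and for 4 of their 5 germline paralogues. Rad21, Nipbl, Stag2 and the paralogue Ctcfl had no entry. All motifs were searched on both strands and no match overlapped another. Capitals mark the matches to TTCCCGC (an E2F-type core), CACGTG (E-box), GCCATNTTG (YY1-type), CCAAT and AGGGGGCGC (part of the CTCF motif). TATAAA was searched too. The first 4 windows set the ubiquitous Smc1a (chrX:152016178-152016477, plus strand) and Stag1 (chr9:100643198-100643497, plus strand) beside the meiotic Smc1b (chr15:85131908-85132207, minus strand) and Stag3 (chr5:138280259-138280558, plus strand), which share the E2F-type core.
Smc1a: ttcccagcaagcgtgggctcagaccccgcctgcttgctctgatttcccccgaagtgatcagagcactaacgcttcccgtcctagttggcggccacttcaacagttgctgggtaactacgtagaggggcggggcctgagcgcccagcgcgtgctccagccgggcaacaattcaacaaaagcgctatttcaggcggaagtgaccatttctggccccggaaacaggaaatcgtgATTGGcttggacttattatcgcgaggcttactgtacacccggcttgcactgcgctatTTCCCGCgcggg
Stag1: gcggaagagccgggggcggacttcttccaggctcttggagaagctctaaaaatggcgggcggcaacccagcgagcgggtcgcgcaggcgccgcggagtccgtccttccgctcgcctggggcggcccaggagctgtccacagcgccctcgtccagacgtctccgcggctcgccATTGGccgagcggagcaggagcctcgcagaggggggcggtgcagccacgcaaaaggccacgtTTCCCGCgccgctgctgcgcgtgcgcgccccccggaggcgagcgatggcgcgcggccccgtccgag
Smc1b: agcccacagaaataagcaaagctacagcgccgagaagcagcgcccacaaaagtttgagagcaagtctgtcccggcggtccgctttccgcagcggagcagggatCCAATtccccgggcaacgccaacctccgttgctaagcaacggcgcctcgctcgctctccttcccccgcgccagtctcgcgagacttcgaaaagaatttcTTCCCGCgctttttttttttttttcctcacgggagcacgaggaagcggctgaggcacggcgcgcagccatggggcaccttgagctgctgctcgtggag
Stag3: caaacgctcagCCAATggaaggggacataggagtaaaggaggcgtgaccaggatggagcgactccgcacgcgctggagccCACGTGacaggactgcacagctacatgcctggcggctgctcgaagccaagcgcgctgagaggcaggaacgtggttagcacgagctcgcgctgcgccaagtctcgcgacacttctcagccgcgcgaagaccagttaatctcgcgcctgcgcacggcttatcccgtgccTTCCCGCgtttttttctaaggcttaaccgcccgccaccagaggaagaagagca

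The next 3 windows belong to Smc3 (chr19:53600146-53600445), Pds5b (chr5:150673577-150673876) and Ctcf (chr8:105636288-105636587), all on the plus strand, and hold the YY1-type letters close to the start. The CTCF-type letters in the Pds5b window are the only match to that motif among the 7 genes.
Smc3: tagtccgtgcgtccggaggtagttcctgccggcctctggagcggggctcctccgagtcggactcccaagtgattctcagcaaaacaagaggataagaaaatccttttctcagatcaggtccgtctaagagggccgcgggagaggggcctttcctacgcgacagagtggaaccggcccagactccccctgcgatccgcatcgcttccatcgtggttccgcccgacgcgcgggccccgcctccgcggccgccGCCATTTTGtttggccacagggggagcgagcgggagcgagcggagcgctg
Pds5b: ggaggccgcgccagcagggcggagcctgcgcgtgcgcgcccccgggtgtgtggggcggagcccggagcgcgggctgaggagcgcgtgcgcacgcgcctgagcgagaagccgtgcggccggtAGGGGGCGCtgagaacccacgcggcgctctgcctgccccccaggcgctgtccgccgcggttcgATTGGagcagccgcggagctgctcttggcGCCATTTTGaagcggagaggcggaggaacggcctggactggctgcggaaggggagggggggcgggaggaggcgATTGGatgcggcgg
Ctcf: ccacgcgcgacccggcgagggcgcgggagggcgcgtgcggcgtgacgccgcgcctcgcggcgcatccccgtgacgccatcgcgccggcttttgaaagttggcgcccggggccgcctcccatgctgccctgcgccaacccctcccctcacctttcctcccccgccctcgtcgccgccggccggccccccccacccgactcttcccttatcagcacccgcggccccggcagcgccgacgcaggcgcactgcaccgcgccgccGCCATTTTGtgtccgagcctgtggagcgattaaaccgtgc

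The windows of the 7 genes were rich in CpG. They held between 23 and 55 CpG dinucleotides, with a ratio of observed to expected CpG of 0.903 to 1.16, where the median of all 32851 RefSeq windows was 7 CpG and a ratio of 0.384. Smc1b and Stag3 had ratios of 1.08 and 1.06, in the same range. Rec8 lay lower at 0.716, and the Rad21l window held 2 CpG with a ratio of 0.318. The E2F-type core was found in 3 of 7 windows (Smc1a, Stag1 and Pds5a), in 2 of 4 paralogue windows and in 4.6% of all windows. The YY1-type letters were found in 3 of 7 windows, in 0 of 4 paralogue windows and in 2.51% of all windows. With the first transcribed base counted as 1, they began at base 1 (Smc3), at base 11 (Ctcf) and 37 bases before base 1 (Pds5b). CCAAT occurred in 4 of 7 windows, in 4 of 4 paralogue windows and in 37.4% of all. CACGTG occurred in 0 of 7, in 1 of 4 paralogue windows and in 7.15% of all. TATAAA occurred in 0 of 7, in 0 of 4 paralogue windows and in 13.6% of all. The CTCF-type letters occurred in 0 of 4 paralogue windows and in 1.25% of all windows. These matches describe letters in the windows and show no binding.

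Library depth differed between the replicates. The read counts summed to 18318181 in replicate 1 and 117522171 in replicate 2. Reads of the 10 genes made up 0.448% of the sum in replicate 1 (exact 95% binomial interval 0.445 to 0.451) and 0.436% in replicate 2 (0.435 to 0.437). Such intervals cover counting error only. Every one of the 10 genes had at least 4296 reads in replicate 1 and 21857 in replicate 2. From replicate 1 to replicate 2, log2(RPKM + 1) of the detected loci moved by a median of -0.36. All 6 markers of embryonic tissues (Nes, Actc1, Hbb-y, Afp, Twist1 and Egfl7) passed 1 RPKM in both replicates. Among them Twist1 was lowest (37.0 RPKM in each) and the embryonic globin gene Hbb-y highest, with 1746 RPKM in replicate 1 and 6474 in replicate 2. Afp moved the other way, from 196 to 82.0 RPKM, and the rest changed less. The cause of these replicate differences was not tested. The trophoblast markers summed to 5.40 and 3.89 RPKM, with 1 of 4 detected (Prl2c2, 5.20 and 3.07) and Tpbpa and Psg21 at 0 reads. The decidua markers summed to 21.7 and 28.5 RPKM, with 2 of 3 detected. Most of that sum was Dcn (20.3 and 22.2), while Prl8a2 rose from 1.23 RPKM (13 reads) to 6.38 (383 reads). A lower level in a whole embryo can mean fewer expressing cells or less RNA per cell, which these data cannot tell apart.

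All 10 genes were abundant. RPKM, the authors' measure of level, divides reads by transcript length and library size, and detection meant at least 1 RPKM in each replicate. All 10 genes were detected, against 49.4% of all loci and 65.1% of protein-coding loci. At 100 RPKM, a limit chosen after the values were seen, 9 of 10 genes passed in both replicates, against 7.69% of protein-coding loci. The exception was Nipbl in replicate 2. Their median was 151 RPKM in replicate 1 and 176 in replicate 2, where protein-coding loci had medians of 8.38 and 5.52. By mean RPKM they lay between percentiles 93.4 and 99.1 of all loci. The single-gene protein-coding loci whose 2 values lay nearest to the medians of the 10 genes were Iws1 (153 and 176 RPKM), Fnbp1l (153 and 177) and Ddah2 (151 and 181), at log2 distances of 0.021, 0.026 and 0.038 over 2 samples.

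**Figure D1:**
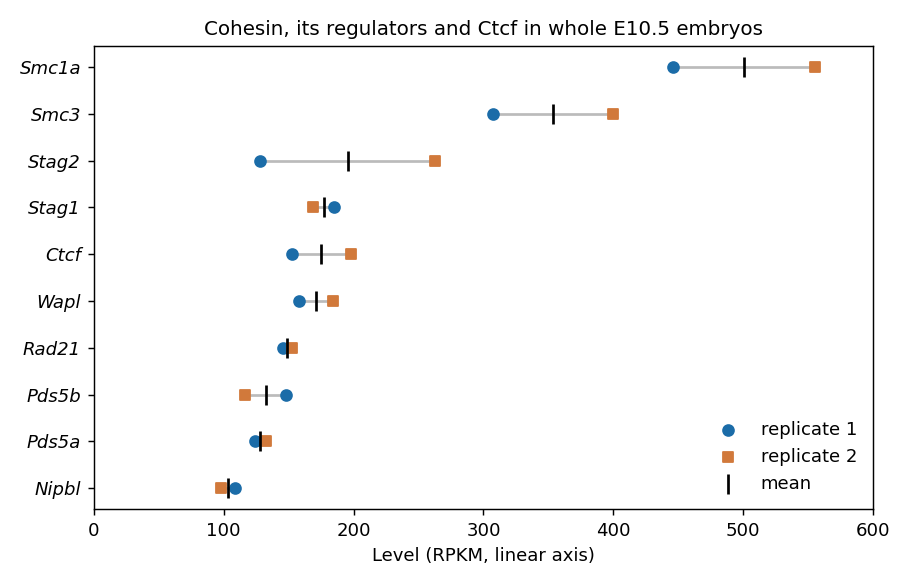
RPKM of each gene in replicate 1 (circles) and replicate 2 (squares) on a linear axis, with the mean as a black bar, ordered by mean. Smc1a and Smc3 lie above the other 8 genes in both replicates, and Stag2 has the widest gap between replicates, from 128 to 263 RPKM.

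**Figure D2:**
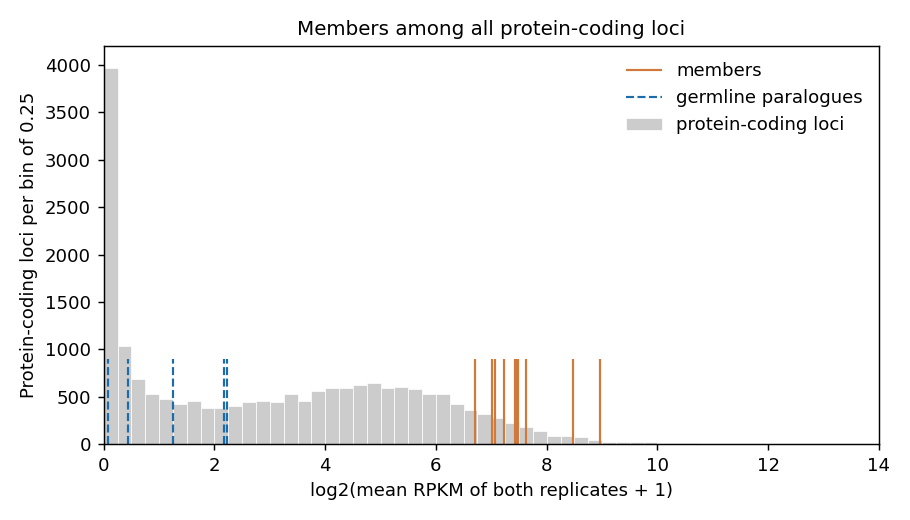
Number of protein-coding loci by log2(mean RPKM + 1), with the 10 genes as solid lines and their 5 germline paralogues (Smc1b, Rec8, Rad21l, Stag3 and Ctcfl) as dashed lines. The 10 genes lie in the upper tail, with mean levels from 103 to 501 RPKM, and the paralogues at 3.65 RPKM or below.

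The SMC arms of the ring had the highest levels. Smc1a, which encodes the X-linked SMC1 subunit of somatic cells, reached 446 RPKM in replicate 1 and 555 in replicate 2 (mean 501 ± 77.6, SD, n = 2), rank 153 among protein-coding loci. Smc3, its partner in the heterodimer, stood at 307 and 400 RPKM (354 ± 65.4), rank 273. Both genes were higher in replicate 2, and both values of Smc1a lay above both of Smc3. Smc1a exceeded Smc3 by 0.50 ± 0.04 on the log2(RPKM + 1) scale, within a limit of 1.01, and per kilobase of the union of annotated exons by 0.08. This limit is 2 times the SD of the log2 ratio between replicates over the 500 detected protein-coding loci nearest in level, combined over both genes. A difference was called beyond the replicate spread when it passed its limit and had the same sign in both replicates. No test over 2 against 2 values could give a two-sided exact permutation p below 0.333.

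Rad21, the kleisin that separase cuts to release sister chromatids, stood at 146 and 152 RPKM (149 ± 4.80). The replicates were close, and both lay below every value of the SMC genes. Smc1a exceeded Rad21 by 1.73 ± 0.18 (limit 0.94) and Smc3 exceeded it by 1.23 ± 0.22 (limit 0.86), both beyond the replicate spread. Per kilobase of exon union these differences were 1.24 and 1.16, also beyond their limits. With the wider spread of all detected loci, Smc3 over Rad21 was within its limit of 1.38 and Smc1a over Rad21 beyond its limit of 1.43.

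The STAG genes encode alternative subunits, with STAG1 linked mainly to long-lived CTCF-anchored loops and STAG2 to shorter ones. Stag1 had 185 RPKM in replicate 1 and 169 in replicate 2 (177 ± 11.5). Stag2, which is X-linked, had 128 and 263 RPKM (196 ± 95.2), with counting intervals of 125 to 131 and 261 to 265. The order of the genes turned between the replicates: Stag1 was higher by 0.53 in replicate 1 and lower by 0.63 in replicate 2, on the log2 scale. Stag1 made up 59.1% of the summed RPKM of the pair in replicate 1 and 39.1% in replicate 2. In reads, with no length involved, its share was 48.8% and 43.6%. The mean difference of -0.05 ± 0.82 was within the limit of 0.83, and per kilobase of exon union it was -0.71, within 0.78.

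Nipbl was the lowest of the 10 by mean RPKM, with 108 in replicate 1 and 97.8 in replicate 2 (103 ± 7.55). It had rank 1640 among protein-coding loci. This lowest place depended on the length used. Per kilobase of exon union, Pds5a (-1.76), Stag1 (-1.27) and Pds5b (-0.86) were below Nipbl beyond their limits on the log2 scale. Only Smc1a (0.90) was above Nipbl beyond its limit. The transcript of Nipbl is long, and the gene had 13114 reads in replicate 1, the most of the 10 genes. In replicate 2 it had 67191, fewer than Smc1a (92114) and Smc3 (87135). The release factor Wapl stood at 158 and 184 RPKM (171 ± 18.1). Nipbl was below Wapl in both replicates, by 0.54 and 0.90 on the log2 scale, and the mean difference of -0.72 ± 0.26 was within the limit of 0.77. In replicate 2 alone the difference of -0.90 passed that limit. With 1 length per locus shared by both replicates the mean difference was again -0.72 and passed a narrower limit of 0.69, while per kilobase of exon union it was -0.06.

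Pds5a and Pds5b encode alternative partners that serve both release by WAPL and protection of acetylated cohesin. Pds5a stood at 124 and 132 RPKM (128 ± 5.84) and Pds5b at 148 and 117 (132 ± 22.5). Neither gene was higher in both replicates. Pds5a made up 45.6% and 53.2% of the pair's RPKM, and the difference of -0.04 ± 0.31 was within the limit of 0.73. Per kilobase of exon union the difference of Pds5a from Pds5b was -0.90, beyond a limit of 0.72. That annotation gives Pds5a 19.3 kilobases of exon, against 9.84 for Pds5b.

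Ctcf, the zinc-finger gene whose product stops loop extrusion, stood at 153 and 198 RPKM (175 ± 31.9). Its level was near that of the kleisin, with a difference from Rad21 of 0.22 ± 0.22 (limit 0.80), which turned to -0.22 per kilobase of exon union. In order of mean RPKM the genes were Smc1a, Smc3, Stag2, Stag1, Ctcf, Wapl, Rad21, Pds5b, Pds5a and Nipbl. Of the 9 neighbours in this order, 1 pair differed beyond the replicate spread, Smc3 over Stag2 (0.93 ± 0.46, limit 0.89). Of all 45 pairs among the 10 genes, 17 did, and the share among pairs of other loci was not computed. Of these 17, 16 involved Smc1a or Smc3. The other was Stag2 over Nipbl (0.83 ± 0.83, limit 0.78), whose difference was -0.56 per kilobase of exon union. On that scale 24 pairs passed, of which 13 were also among the 17. The 4 that did not were Smc1a over Wapl (0.84), Smc3 over Wapl (0.76), Smc3 over Nipbl (0.82) and Stag2 over Nipbl. Some pairs that passed per kilobase of exon union had the opposite order to that in RPKM. Stag1 was below Wapl (-1.33), Nipbl (-1.27) and Rad21 (-0.93), and Pds5a (-1.76) and Pds5b (-0.86) were below Nipbl. The rest of the passing pairs kept the RPKM order. The order of the genes below Smc3 thus depended on the length used.

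**Figure D3:**
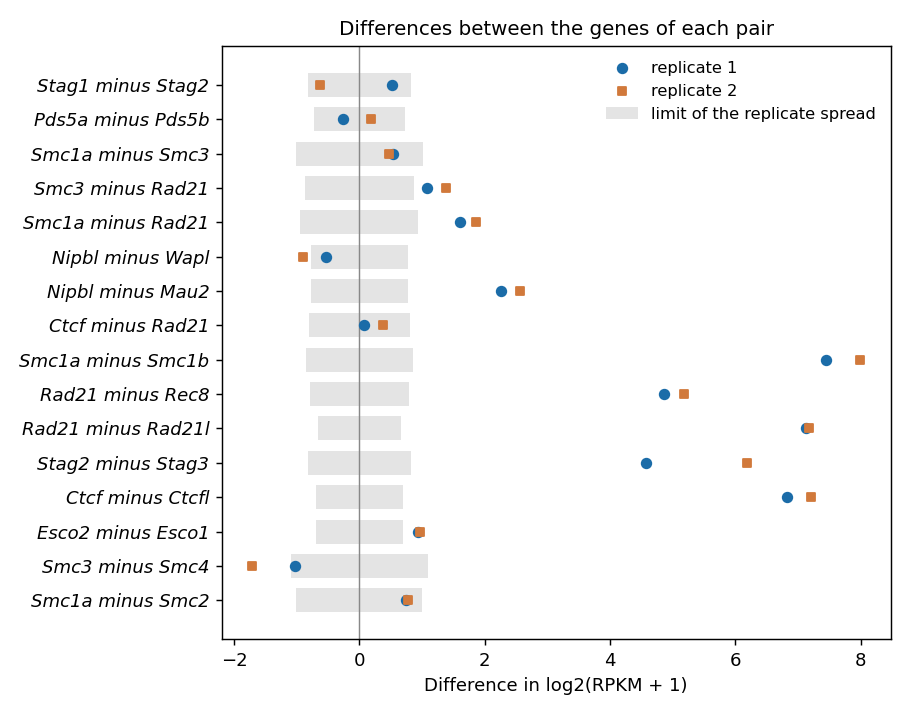
Difference in log2(RPKM + 1) between the genes of 16 pairs in replicate 1 (circles) and replicate 2 (squares), with the limit of the replicate spread as a grey band around 0. The points of the paralogue pairs Stag1 and Stag2, and Pds5a and Pds5b, lie on both sides of 0 inside the band, and those of the somatic and germline pairs lie between 4.57 and 7.99.

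The germline counterparts of the ring were scarce in the same libraries. Smc1b, the meiotic SMC1, had 1.55 RPKM from 80 reads in replicate 1 and 1.19 RPKM from 349 reads in replicate 2. The meiotic kleisin Rec8 stood at 4.06 and 3.25 RPKM, and Stag3, the meiotic STAG, at 4.46 and 2.61. Rad21l, a kleisin of meiotic prophase, had 1 read and 8 reads (0.0442 and 0.0622 RPKM). Thus 3 of 4 passed the minimum for detection, at levels far under those of the somatic subunits. The ratio of Smc1a to Smc1b in RPKM was 288 in replicate 1 (95% counting interval 231 to 363) and 467 in replicate 2 (421 to 520). For Rad21 over Rec8 it was 35.8 (28.8 to 45.2) and 46.9 (42.1 to 52.5), and for Stag2 over Stag3 28.8 (24.9 to 33.4) and 100.8 (92.3 to 110). With 1 read of Rad21l in replicate 1, the ratio of Rad21 to it was 3292 with an interval from 591 to 130070, and in replicate 2 it was 2448 (1242 to 5671).

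Ctcfl, the germline paralogue of Ctcf, shares its locus with the gene Ctcflos, and the joined locus had 8 and 27 reads (0.361 and 0.349 RPKM), which cannot be divided between them. The ratio of Ctcf to it was 423 (214 to 980) and 567 (390 to 861). All 5 pairs of a somatic gene with a germline paralogue differed beyond the replicate spread, from 5.01 ± 0.23 on the log2 scale for Rad21 over Rec8 to 7.72 ± 0.38 for Smc1a over Smc1b. The pseudocount of 1 caps the differences of the scarcest genes: with 0.1, Rad21 over Rad21l (9.93) and Ctcf over Ctcfl (8.58) lay above Smc1a over Smc1b (8.42). Per kilobase of exon union the same pairs differed by 4.40 (Stag2 over Stag3) to 6.08 (Smc1a over Smc1b). Of 6 germ cell markers 2 passed 1 RPKM in both replicates, Nanos3 (5.88 and 3.73) and Sycp3 (33.8 and 24.99), the latter joined with Chpt1. Ddx4 stood at 0.709 and 0.178 RPKM and Dazl at 0.162 and 0.157, while Dppa3 had 0.644 and 0.476 and the synaptonemal gene Sycp1 1.29 and 0.282. The summed level of the 6 markers was 42.5 and 29.8 RPKM, and their part in the level of the meiotic subunits was not tested.

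Cofactors of the cohesin cycle stood mostly below the ring. All 11 measured were detected, with a median of 40.2 and 28.8 RPKM. Mau2, which forms the loader with Nipbl, stood at 22.0 and 15.8 RPKM, and Nipbl exceeded it by 2.40 ± 0.22 (limit 0.77), beyond the replicate spread, and by 4.19 per kilobase of exon union. Of the acetyltransferases of SMC3, Esco2, which acts in S phase, stood at 77.8 and 57.5 RPKM and Esco1, which acts throughout interphase, at 40.2 and 28.8. Esco2 was higher by 0.95 ± 0.02 (limit 0.70), but per kilobase of exon union the difference was -0.73, beyond a limit of 0.58 on the other side. With the spread of all detected loci the difference in RPKM was within its limit of 1.26. Hdac8, the deacetylase of SMC3, was the lowest at 10.9 and 8.60 RPKM.

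Other cofactors act between replication and the end of mitosis. Cdca5 (sororin), which shields cohesin from WAPL, stood at 32.7 and 23.3 RPKM, and Sgol1 (shugoshin), which guards it at the centromere, at 70.2 and 87.9. The separase gene Espl1 stood at 20.3 and 13.4 RPKM and its inhibitor Pttg1 (securin) at 56.4 and 66.0. Of the kinases, Aurkb was highest in RPKM (149 and 74.0), Plk1 stood at 72.7 and 57.6, and Gsg2 (haspin) at 30.9 and 22.2. This order depended on the length used. Plk1 had more reads than Aurkb, with 1911 in replicate 1 and 8615 in replicate 2 against 1511 and 5937. Per kilobase of exon union Plk1 was also above Aurkb in both replicates. The proliferation markers Mki67, Top2a, Ccna2, Ccnb1, Cdk1 and Pcna were all detected, with a median of 249 and 265 RPKM, from Cdk1 (132 and 114) to Top2a (713 and 1057, in a joined locus). With CPM per kilobase of exon union, Mki67 (423 and 408) was above Top2a (196 and 253). Of the 11 cofactors 2 were higher in replicate 2 in RPKM, Sgol1 and Pttg1, a share near the 18.6% of detected protein-coding loci, and 0 of 11 were in CPM, against 8.05%.

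The other SMC complexes and looping factors gave a scale for these levels. The 8 condensin genes, whose products compact mitotic chromosomes, had a median of 134 and 122 RPKM. Smc4 was highest (627 and 1310) and Ncapd3 lowest (33.7 and 23.8). Smc3 lay below Smc4 by -1.37 ± 0.48 (limit 1.09), beyond the replicate spread, though the difference of -1.03 in replicate 1 alone was not. Neither was that of -0.71 per kilobase of exon union, nor the RPKM difference against the spread of all detected loci (limit 1.65). Smc1a and the condensin gene Smc2 (267 and 324) differed by 0.76 ± 0.03, within a limit of 1.01. The 6 genes of the SMC5/6 complex had a median of 88.2 and 106 RPKM, with Nsmce4a highest (158 and 205) and Ndnl2 lowest (30.9 and 23.3). The 6 architectural and looping factors had a median of 103 and 100.3, from Maz (51.9 and 30.9) to Ldb1 (176 and 142, joined with Pprc1). These extremes hold for RPKM. Per kilobase of exon union neither Nsmce4a nor Ldb1 was the highest of its list, and Ncapd3 was not the lowest condensin gene.

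Among other chromatin complexes the medians were lower. They were 53.3 and 35.1 RPKM for 14 Polycomb genes, of which 13 were detected, and 71.1 and 65.3 for 15 SWI/SNF genes, all detected. Ezh2, in a joined locus, was the highest Polycomb gene (691 and 745). Smarce1 was the highest SWI/SNF gene in RPKM (513 and 671), though not per kilobase of exon union. The neuronal subunit gene Actl6b was the lowest (1.34 and 1.70). The lowest of the 10 genes in RPKM, Nipbl, thus stood above the median of either list. In RPKM the highest genes of both lists, Ezh2 and Smarce1, stood above Smc1a. With CPM divided by kilobases of exon union that order turned. Smc1a then had 119.9 in replicate 1 and 135.9 in replicate 2, against 59.4 and 54.6 for Ezh2 and 42.5 and 39.8 for Smarce1. No test compared the lists.

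**Figure D4:**
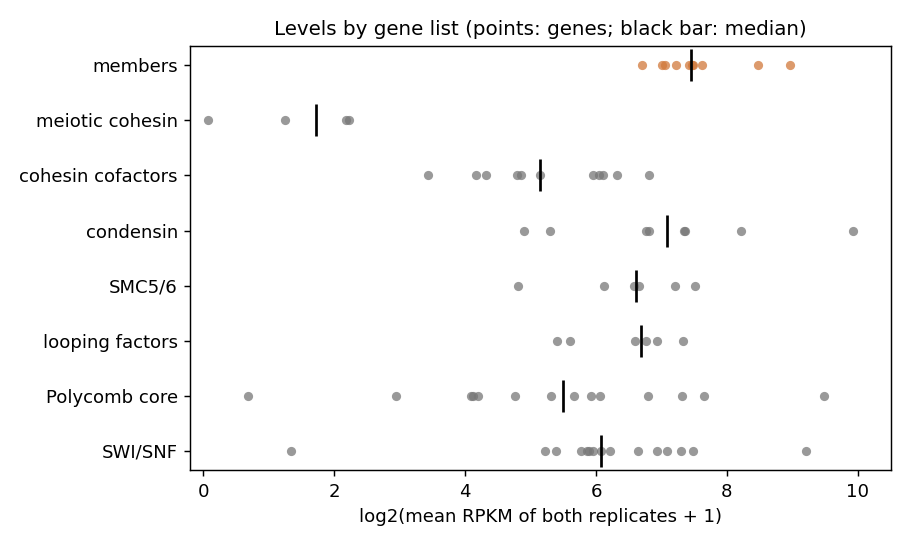
Mean RPKM of both replicates as log2(RPKM + 1) for each gene (points) of the 10 genes described and of 7 other lists, with each list's median as a black bar. The 10 genes span 103 to 501 RPKM, the condensin genes 28.7 to 969, the looping factors 41.4 to 159 and the Polycomb genes 0.609 to 718.

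The replicates differed by less than 2-fold for 9 of the 10 genes in RPKM. Stag2 was the exception, 2.05-fold higher in replicate 2, where 2.94% of detected loci were over 2-fold higher and 6.92% over 2-fold lower. Among detected protein-coding loci 1.1% were over 2-fold higher and 3.94% lower. The other ratios of replicate 2 to replicate 1 ran from 0.786 (Pds5b) to 1.30 (Smc3). Of the 10 genes 7 were higher in replicate 2, against 18.6% of detected protein-coding loci. Loci of like level moved by different amounts: the median log2 ratio of the 500 loci nearest in level ran from -0.13 at the level of Nipbl to 0.39 at that of Smc1a. Relative to those medians 9 genes lay within 1 SD, and Stag2 lay 0.93 above its median at an SD of 0.41.

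Most of the Stag2 difference was in the length by which the authors divided. Dividing reads by RPKM gives length times library size. At 2711 loci listed with 1 transcript and over 200 reads, replicate 2 over replicate 1 gave a ratio of 5.68, within 1% at 100% of them. Rad21 and Nipbl, the 2 genes listed with 1 transcript, had exactly that ratio. For Stag2, listed with 8 transcripts, the length behind replicate 2 was 0.626 times that behind replicate 1. For Ctcf, listed with 6, it was 0.613 times. Lengths over 1.2-fold apart occurred in 2 of the 8 genes with several transcripts, against 13.4% of such loci with over 200 reads. With 1 length shared by both replicates Stag2 had 162 and 208 RPKM, a log2 difference of 0.36, and Ctcf had 195 and 155, a difference of -0.33. Why the lengths differed was not tested.

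In CPM, read counts scaled to their sum over loci, no length enters, but the library size differs too. The count sums had a ratio of 6.42 between replicates, against the 5.68 behind RPKM. This lowers the log2 ratio of each gene in CPM whatever its length. Rad21, with no length difference, went from 0.07 in RPKM to -0.11 in CPM, and Nipbl from -0.15 to -0.32. Stag2 then had 354 and 403 CPM, 1.14-fold higher in replicate 2, and 0 of the 10 genes was over 2-fold apart, against 1.71% of detected loci higher and 7.68% lower. Ctcf stood at 264 and 186 CPM. It fell by 0.51 on the log2 scale in CPM while it was 0.37 higher in RPKM, and 1.33% of detected protein-coding loci moved opposite ways by over 0.2 on both scales. In CPM 3 of the 10 genes were higher in replicate 2 (Smc1a, Smc3 and Stag2), against 8.05% of detected protein-coding loci. The median CPM ratio of all detected loci was -0.51. Relative to the median of loci of like level, 8 of 10 genes were higher in CPM, and Ctcf (-0.35) and Pds5b (-0.15) were lower. Such a median has as many of its nearest loci above it as below. Stag1 (0.03), Nipbl (0.05) and Smc1a (0.08) lay close to it.

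**Figure D5:**
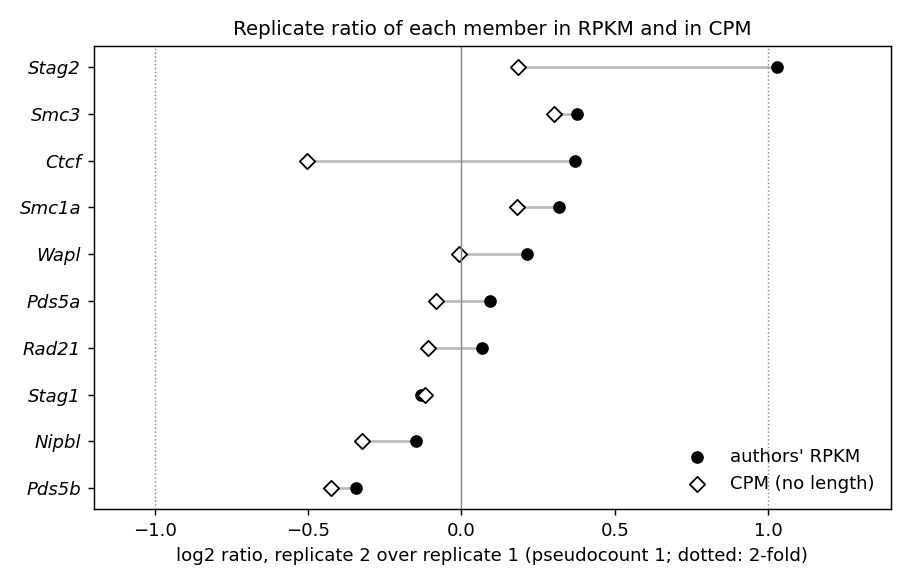
log2 ratio of replicate 2 over replicate 1 for each gene with a pseudocount of 1, in the authors' RPKM (filled circles) and in CPM (open diamonds), with dotted lines at 2-fold. Stag2 moves from 1.03 in RPKM to 0.19 in CPM and Ctcf from 0.37 to -0.51, and the next largest shift is that of Wapl, from 0.22 to -0.01. Library size as well as length differs between the scales, and Rad21, with no length difference, moves from 0.07 to -0.11.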

How the data were processed

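Illumina libraries were made from total RNA of whole embryos, per the labels' protocols. The submitters' processing notes name TopHat and build mm9. The read counter, filters and strand handling were not given in the sources used here. Sense and antisense reads thus cannot be separated. Each file held, per the file headers, RPKM values and raw read counts per locus as the authors deposited them. The 34676 rows were summed to 34624 loci by gene set, and gene types and exon lengths came from GENCODE M21, which is on another build. Symbols were matched for 86.6% of 37681 identifiers. RPKM was the main unit, and CPM was computed from the counts. Levels were compared as log2(RPKM + 1), where differences of low genes come out too small. The limit for a pair was 2 times the root mean square of the SDs of both genes' 500 nearest loci. Genes named were the 10 genes, all paralogues and cofactors, the extremes of the other lists, the genes of the 16 pairs and the 3 nearest loci. Of the genes this rule covers, 1 is not reported here. Tissue, proliferation and germ cell markers were also named beyond the rule. Members and lists were chosen with earlier results of these data known. The code was tested on simulated data. Python 3.11.15, pandas 2.3.3 and SciPy 1.17.1 were used. Alternatives covered pseudocount, scaling, length, minimum, the spread and each replicate left out.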

Additional observations from a re-analysis of the deposited data

How the results depend on the processing

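With replicate 1 left out and with replicate 2 left out, all 10 genes passed 1 RPKM, as they did at minimums of 0.3 and 10 RPKM. The number of pairs beyond the replicate spread, 10 of 16, was 9 to 11 with a replicate left out, 7 with the spread taken from all detected loci and 11 with a length shared by both replicates. The number of genes over 2-fold apart between replicates, 1 in RPKM, was 3 with RPKM rescaled to the same sum, 0 in CPM and 0 with a shared length, and it cannot be computed with a replicate left out. The Stag1 share ranged from 39.1% to 59.1% and the Pds5a share from 45.6% to 53.2% over the replicates, and the Pds5a share was 34.4% per kilobase of exon union. The difference of Stag1 from Stag2 was 0.53 in replicate 1 alone and -0.63 in replicate 2 alone, that of Pds5a from Pds5b was -0.26 and 0.18, and per kilobase of exon union that of Ctcf from Rad21 was -0.22 and that of Esco2 from Esco1 -0.73. With the spread from all detected loci, Smc3 over Rad21, Esco2 over Esco1 and Smc3 below Smc4 were within it. The shared length and the exon union were chosen after seeing the data, and the cause of these changes was not tested. Of the other values of single pairs, gene levels and the median percentile, 159 were counted as unchanged. For pairs this meant the same direction and call. For levels it meant a shift below the SD of the 2 replicates. Leaving a replicate out always meets that limit, and so does the highest row alone, since each gene had 1 row. No paired analysis was possible because there is only 1 group. The lower depth of replicate 1 limits the scarce germline genes, where a count of 0 allows up to 0.164 CPM.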
